A study of Mus musculus with 8 samples.

Results

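The genes for the proteins of the cytosolic ribosome were followed across 8 arrays of total RNA from mouse double positive thymocytes. They were taken as every probe set that the platform annotation gives a single symbol starting with Rpl or Rps and a digit, or the symbol Rplp0, Rplp1, Rplp2 or Rpsa, without the S6 kinases. The rule found 35 symbols of 8251 measured alone by a probe set, with 49 probe sets among 12422 probe sets that are not array controls. Of these, 27 probe sets (18 symbols) belong to the small subunit and 22 (17 symbols) to the large subunit. Another 39 probe sets carry several symbols, at least 1 of them a ribosomal protein symbol, and are described only as a set. The rule also took in Rpl7l1, Rpl39l, Rps4l and Rps27l, which are paralogs of Rpl7, Rpl39, Rps4x and Rps27.

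Double positive thymocytes are the stage of T cell development at which a cell carries both coreceptors, CD4 and CD8, and tests its newly assembled T cell receptor. The study engaged that receptor with antibodies. Its 4 groups of 2 arrays are a control, an overnight control, and groups with the titles Valpha2 and Vbeta5, names of variable segments in the receptor's alpha and beta chains. The titles number the arrays of each group as data 1 and data 2, given here as array 1 and array 2. Mouse strain, genotype and age, antibody clones and doses, the time of the control and of each antibody group, and the handling of the cells are not stated in the labels used here. Nothing says that the arrays of a group came from separate animals or cultures, and the p-values below reflect no more than the spread between the arrays at hand, possibly a technical one.

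The cytosolic ribosome reads messenger RNA and joins amino acids into protein. Its small subunit holds the decoding site and its large subunit the peptide bond site, each built from ribosomal RNA and many small proteins. Most ribosomal protein messages are short, abundant and start with a run of pyrimidines, the terminal oligopyrimidine (TOP) motif, through which the mTOR pathway controls their translation. Ribosome production is known to increase when T cells are activated. Among single members, Rpl22 is known for its role in the development of alpha beta T cells, Rps19 and Rps24 for mutations in Diamond-Blackfan anaemia, Rpl13a for silencing of inflammatory messages outside the ribosome, and Rpsa for a second role as a laminin receptor.

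Promoter sequences are shown first for 4 members that followed the common pattern of the family across the arrays, of which Rps18 and Rpl19 hold the motif named below and Rps3 and Rps24 lack it. The 3 members that did not follow that pattern (Rps19, Rpl13a, Rpsa) come after them. They are the 100 bases before the most upstream RefSeq start of each gene in assembly GRCm38.p6, written 5′ to 3′ on the gene's strand. Capitals mark CTTCCG and its reverse complement CGGAAG, the core of sites bound by Ets family factors, a motif chosen after the sequences were seen.
Rps18, chr17:33955666-33955765, minus strand: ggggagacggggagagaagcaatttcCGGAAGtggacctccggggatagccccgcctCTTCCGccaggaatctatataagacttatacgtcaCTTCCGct
Rpl19, chr11:98026610-98026709, plus strand: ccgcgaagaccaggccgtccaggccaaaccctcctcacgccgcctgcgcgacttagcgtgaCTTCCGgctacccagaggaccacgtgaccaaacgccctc
Rps3, chr7:99483710-99483809, minus strand: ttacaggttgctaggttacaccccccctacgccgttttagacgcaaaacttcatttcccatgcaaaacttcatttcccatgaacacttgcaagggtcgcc
Rps24, chr14:24490578-24490677, plus strand: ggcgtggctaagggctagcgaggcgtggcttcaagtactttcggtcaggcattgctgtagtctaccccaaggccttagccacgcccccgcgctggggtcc
Rps19, chr7:24884492-24884591, plus strand: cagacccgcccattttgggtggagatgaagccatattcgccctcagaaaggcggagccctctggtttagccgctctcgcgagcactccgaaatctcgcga
Rpl13a, chr7:45128746-45128845, minus strand: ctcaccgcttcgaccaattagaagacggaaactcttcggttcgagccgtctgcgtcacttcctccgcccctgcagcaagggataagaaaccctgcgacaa
Rpsa, chr9:120127666-120127765, plus strand: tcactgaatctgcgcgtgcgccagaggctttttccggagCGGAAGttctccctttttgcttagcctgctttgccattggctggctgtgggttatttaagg
In the 250 bases before the start, 15 of the 28 member genes with a promoter in the RefSeq table held the motif on either strand, against 13.8% of all 27025 promoters. Among members with a mean signal over 400 it was 11 of 19. Of the 16 of these that followed the common pattern, 10 held it and 6 did not (Rps3, Rps24, Rps4x, Rplp0, Rpl6 and Rpl10a), and of the 3 that did not follow it, Rpsa held it and Rps19 and Rpl13a did not. A match describes letters only, and no binding was measured.

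Signals are the authors' normalized intensities on a linear scale. All arrays carried the coreceptor messages of the labelled cells, with mean signals of 11198 for Cd8b1, 5709 for Cd8a and 2103 for Cd4. The summed signal of 12 double positive thymocyte marker genes ranged from 25512 to 93817, with both Vbeta5 arrays lowest. By the median of their 16 probe sets, only array 2 of Vbeta5 lay below all arrays of the other groups. Summed signals of markers of 5 other cell types were at most 2036.4, that of thymic epithelium and stroma on overnight control array 1. A measure of RNA quality, the log2 ratio of the Gapdh control signals at the 3′ and 5′ ends, reached 1.72 on array 1 of Valpha2, 0.95 on array 1 of the overnight control and 0.48 on array 1 of Vbeta5, and lay between -0.28 and -0.09 elsewhere. The same ratio for actin was 1.47, 0.68 and 0.39 on these arrays and 0.0042 to 0.30 elsewhere, so that Vbeta5 array 1 lay close to the rest. These 3 arrays are called the high-ratio arrays below. In bulk RNA, fewer cells of a type and less RNA per cell cannot be told apart.

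The 49 probe sets fell into 2 ranges of signal. For 23 probe sets (21 symbols) the mean over the 8 arrays exceeded 400, with single signals from 459.9 to 31452.9. The other 26 had means of at most 128, with single signals from 2.1 to 211.9, and 13 of them lay below the filter on dim probe sets. Just above the division lay Rps27, with a mean of 598. That threshold was set after the values were seen and is used without a test. Signals of different probe sets do not rank the genes by amount. Probe sets of 1 gene fell on both sides of it. Rps4x, a small subunit protein encoded on the X chromosome, had 5 probe sets with means from 10.4 to 11724. For Rps24 the pair averaged 38.3 and 19149, for Rpl7 19.7 and 11913, and for Rpl19 60.2 and 12281. In all, 6 of 10 symbols with several probe sets had means more than 1 log2 unit apart, Rps28 and Rps29 being the others. Of the 49 probe sets, 15 carry a suffix that marks probes shared between related sequences or chosen under relaxed rules, and ribosomal protein genes have many processed pseudogenes, so their assignment to 1 gene is uncertain. The dim range is no measure of a gene's absence, and 14 symbols were represented by dim probe sets alone, among them Rps13, Rps14, Rps15, Rps20, Rpl22 and Rpl39.

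The members held a smaller part of the summed signal on the control arrays than on any other array. Their share was 3.79% and 4.14% on control arrays 1 and 2, 5.71% and 4.59% on the overnight control arrays, 5.55% and 4.63% on the Valpha2 arrays, and 5.32% and 4.67% on the Vbeta5 arrays. The group means were 3.96% ± 0.253 (SD, n = 2) in the control, 5.15% ± 0.788 in the overnight control, 5.09% ± 0.646 for Valpha2 and 4.995% ± 0.465 for Vbeta5. Both control arrays lay below all 6 others, whereas the 3 other groups overlapped. Within each of these 3 groups the high-ratio array had the larger share. By summed signal, markers of other cell types were also lowest on both control arrays in 3 of 5 lists. Their summed signals were 313.4 and 454.8 against 536.7 to 857.6 for 5 B cell genes, 398.8 and 372.8 against 442.8 to 938.8 for 6 macrophage genes, and 180.3 and 247.6 against 272 to 790.3 for 6 granulocyte genes. Mean signals of single probe sets in these 3 lists ran from 3.56 (Lyz2) to 253 (Cd79b), with Cd14 at 238, Cd79a at 109, Camp at 105 and S100a8 at 54.4. The 2 other lists did not follow this. Erythroid markers summed to 486.2 and 211.3 on the control arrays, against 213.2 to 487.1 on the others. For thymic epithelium and stroma the sums were 906.4 and 834.1, against 609.2 to 2036.4. By the median signal of a list, both control arrays were lowest for the B cell genes only. The macrophage median was 14.45 on control array 2 and 13.05 on Valpha2 array 2. The granulocyte median was 34.8 on control array 2 and 21.7 on overnight control array 2. The part of RNA quality and of other cell types in the difference in share was not tested. Leaving those 3 arrays out, the remaining single arrays at 4.59%, 4.63% and 4.67% still lay above both control arrays. Exact permutation of 2 arrays against 2 cannot give a p below 0.333 (two-sided), so no test was made of the share.

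**Figure D1:**
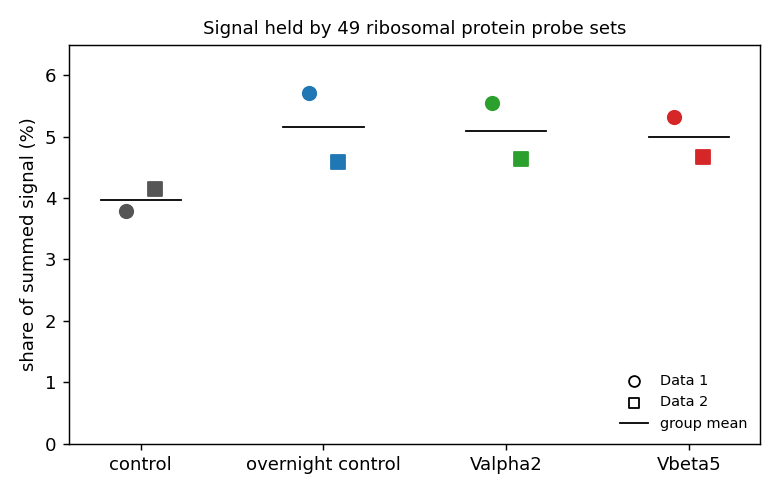
Share of the summed signal of all probe sets held by the 49 ribosomal protein probe sets (y axis, percent) on each of the 8 arrays, by group (x axis). Circles are array 1, squares array 2 and lines group means; the control arrays at 3.79% and 4.14% sit below the other 6.

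The overnight control was compared with the control first, because both antibody groups are set against it. None of the 36 tested members passed (limma, Benjamini-Hochberg adjusted p under 0.05), beside 0.217% of all 8281 tested probe sets in either direction (0.0242% higher and 0.193% lower). At an unadjusted p under 0.05 there were 3 members with a positive difference (Rpl7, Rps24 and Rps4x) and 0 with a negative one, against 4.03% and 5.01% of all probe sets. That count of members, in either direction, was 8 with the array number as a block and 0 with a common median. The share of all probe sets at this cut-off is not given for those fits, so the counts are not compared with it. Adjusted calls over all probe sets were 107 with the block and 10 with a common median, against 18 in the main fit. The log2 difference was positive for 31 of 36 members, against 58.7% of all probe sets. Its median was 0.39 over the members and 0.10 over all tested probe sets. Among the 23 members with a mean signal over 400 the median was 0.39 with 22 positive, while 2413 other probe sets in that signal range had a median of -0.055 with 1053 positive. The 17 tested small subunit probe sets had a median of 0.47 and were all positive. For the 19 large subunit probe sets it was 0.27, with 14 positive. In the bright range these values lay close together, with a median of 0.39 and 12 of 12 positive for the small and 0.39 and 10 of 11 for the large, so that the gap lies in dim probe sets. Leaving out array 1 of the overnight control gave 0.24 for the small and 0.14 for the large subunit, and leaving out its array 2 gave 0.72 and 0.43.

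Rps24, a small subunit protein, had signals of 11584.8 and 16201 on the control arrays, 25499.2 and 18448.8 on the overnight control arrays, 21404 and 18593.4 on the Valpha2 arrays, and 21889.1 and 19567.5 on the Vbeta5 arrays. Both control arrays were below the other 6. The overnight control minus control difference was 0.66 ± 0.26 (SE) on the log2 scale (limma adjusted p = 0.486). Rpl7, a large subunit protein, gave 7582.3 and 10406.1 in the control, 13866.6 and 13411.7 in the overnight control, 14101.4 and 10955.1 with Valpha2, and 12695.3 and 12286.6 with Vbeta5. Its difference was 0.62 ± 0.24 (limma adjusted p = 0.486), and again neither control array reached any other array. The bright Rps4x probe set read 7854.2 and 9783.1 in the control, 14499 and 11874.5 in the overnight control, 14381.6 and 11605.6 with Valpha2, and 11442 and 12348.9 with Vbeta5. The difference of 0.58 ± 0.23 had a limma adjusted p of 0.495, and the 2 control arrays were the lowest.

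Rps28, a small subunit protein near the messenger RNA exit, had signals of 12360.5 and 12811.3 in the control, 22778.9 and 15444.6 in the overnight control, 19948.8 and 14741.3 with Valpha2, and 21583.8 and 15890.6 with Vbeta5 at its brightest probe set. Here array 1 of each of the other 3 groups stood well above array 2, and the difference was 0.58 ± 0.28 (limma adjusted p = 0.574). Rplp0, the base of the stalk that recruits elongation factors, read 11391.5 and 13634.1 in the control, 19456.4 and 15018.6 in the overnight control, 16723.1 and 14798.1 with Valpha2, and 15925.7 and 15042.7 with Vbeta5. Its difference was 0.46 ± 0.23 (limma adjusted p = 0.590). Rpl41, a very short basic peptide of the large subunit, read 17346.4 and 16386.3 in the control, 28450.9 and 17383.9 in the overnight control, 27069.2 and 18611.8 with Valpha2, and 31452.9 and 22020.5 with Vbeta5. For Rpl41 the lower overnight control array lay just above the higher control array, and the difference was 0.40 ± 0.31 (limma adjusted p = 0.704).

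**Figure D2:**
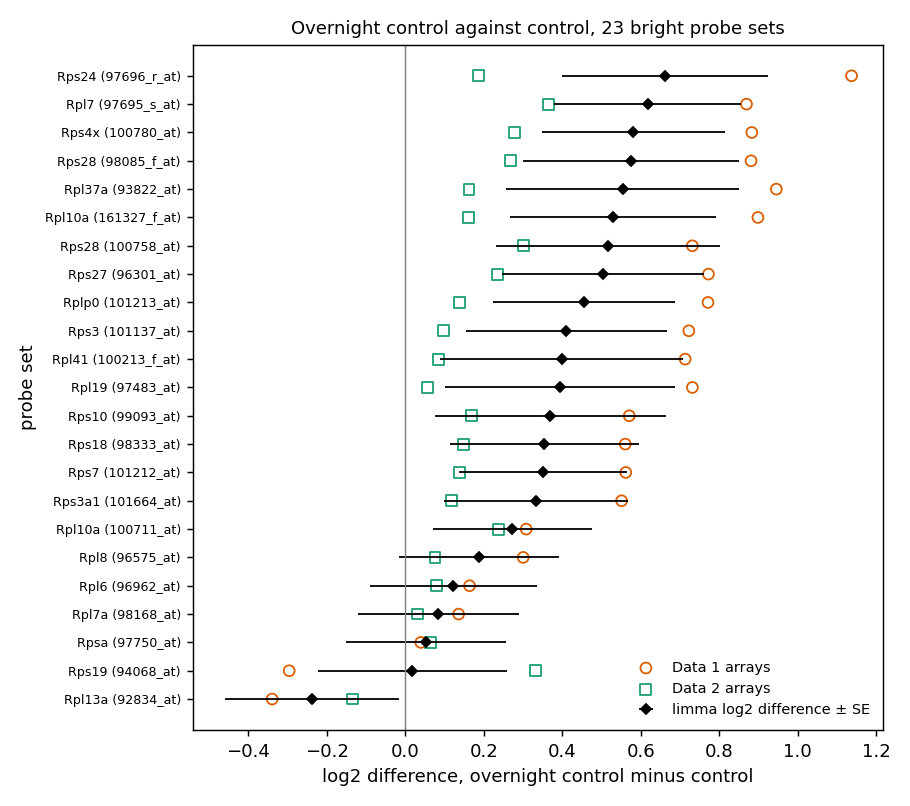
Log2 difference of overnight control minus control (x axis, log2(signal + 17) scale) for the 23 member probe sets with a mean signal over 400 (y axis), as the limma estimate with its SE (diamonds) and between the arrays numbered 1 (circles) and 2 (squares). The estimate is positive for 22 of the 23, and none passed the adjusted threshold.

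Both overnight control arrays exceeded both control arrays for 24 of 36 members, against 21.6% of all tested probe sets. The opposite held for 1 member, the paralog Rpl39l (38.2 and 46.5 in the control, 34.2 and 12.6 in the overnight control), against 16.3%. All 6 other arrays exceeded both control arrays for 16 of 36 members (44.4%, against 7.55% of all), 15 of them in the bright range. All 6 lay below both for 0 members, against 6.69% of all. The size of the difference depended on the array. Between the arrays numbered 1 the median over the members was 0.72, and between the arrays numbered 2 it was 0.15, against 0.16 and 0.0075 over all tested probe sets. Leaving out array 1 of the overnight control gave a member median of 0.23, and leaving out its array 2 gave 0.62. Over all tested probe sets these were 0.045 and 0.13.

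The scaling of the arrays also bore on it. Bringing the arrays to a common median moved the median of all tested probe sets from 0.10 to -0.13. That of the members moved from 0.39 to 0.16. This scaling shifts every probe set of an array alike, so the distance of 0.29 between the 2 medians could not change. With quantile normalization the medians were 0.10 for members and 0.022 for all, a distance of 0.078. Positive members numbered 28 of 36 with quantile normalization and 25 with a common median. Of all 8281 tested probe sets, 4290 and 3275 were positive under these settings, against 4865 in the main fit. Members with all 6 other arrays above both controls numbered 2 with quantile normalization (5.56%, against 5.34% of all) and 4 with a common median (11.1%, against 3.74%). With the high-ratio arrays left out, 18 of 36 members (50%, against 15.8% of all) had every remaining array of the other groups above both controls.

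**Figure D3:**
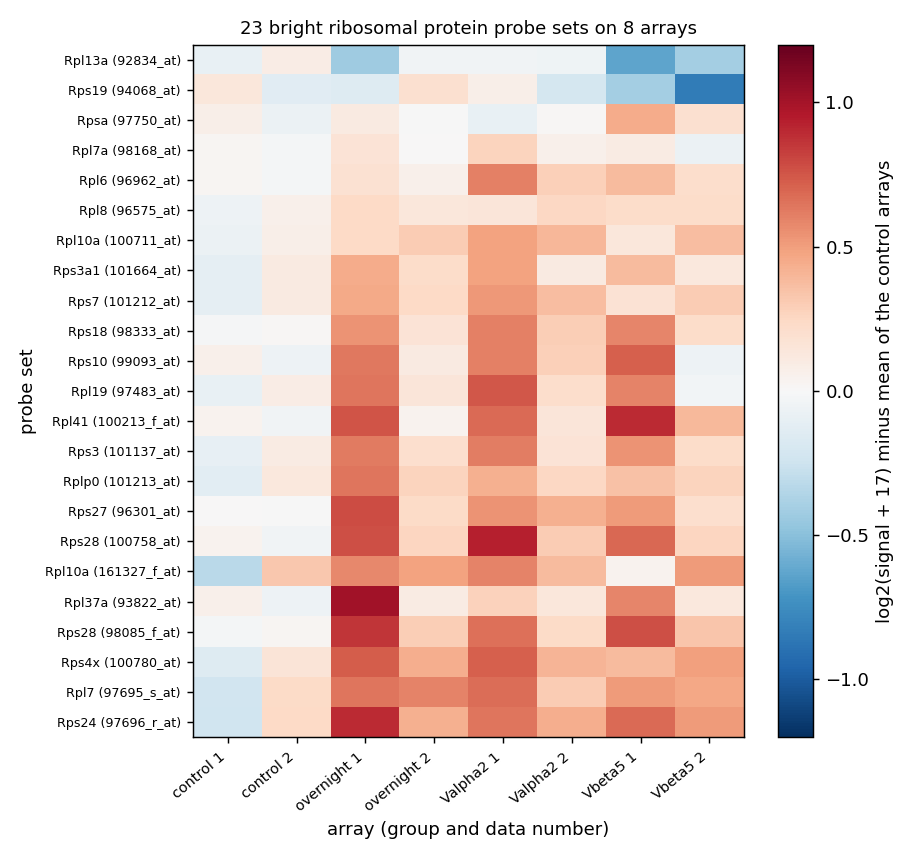
Signals of the 23 member probe sets with a mean over 400 (rows) on the 8 arrays (x axis), with colour for log2(signal + 17) minus its mean over the control arrays. A control array is the lowest for 18 of the 23 rows, a count not given for other probe sets. Rps19, Rpl13a and Rpsa run differently from the rest.

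The bright members were compared with each other over the 8 arrays. The correlation of a member with the median of the other bright members ranged from 0.58 to 0.98 for 20 of 23 probe sets, with both Rpl10a probe sets lowest among them. The arrays enter all of these correlations with their scaling and RNA quality. No correlation of other probe sets with this median is given, so the values do not show a pattern particular to the family. They are given as a description. Of the 23 bright probe sets, 20 had their highest signal on a high-ratio array: 10 on that of Valpha2, 7 on that of the overnight control and 3 on that of Vbeta5. The lowest signal fell on control array 1 for 13 and on control array 2 for 5. These counts are not given for all tested probe sets, so they do not show a trait particular to the members. The exceptions to the correlations were Rpl13a (r = -0.51), Rps19 (r = -0.16) and Rpsa (r = 0.19), whose promoters are printed above.

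Engagement of the beta chain was compared with the overnight control. None of 36 members passed (limma), beside 0.616% of all tested probe sets in either direction (0.35% higher and 0.266% lower). At an unadjusted p under 0.05 there was 1 member, Rps19, with a negative difference, and 0 with a positive one, against 4% and 4.43% of all. The member median was -0.069 and that of all probe sets -0.011, with 11 of 36 members positive against 48.7% of all. The sign of the member median turned with single arrays: it was 0.11 when array 1 of the overnight control was left out, -0.23 when array 2 was, and -0.19 and 0.032 when Vbeta5 arrays 1 and 2 were. Over all tested probe sets the medians were 0.055, -0.095, 0.0046 and -0.011, in the same order. Both Vbeta5 arrays exceeded both overnight control arrays for 3 members (against 15.8% of all) and lay below them for 5 (against 15.2%). The 3 were Rpsa, Rpl6 and Rpl39l, and the 5 were Rps19, Rpl7, Rpl38, Rps13 and the dim Rpl19 probe set.

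Rps19, a small subunit protein needed for maturation of its ribosomal RNA, had signals of 3295.4 and 2715.6 on the control arrays, 2682.5 and 3424.7 on the overnight control arrays, 3143.2 and 2583.8 on the Valpha2 arrays, and 2256.6 and 1667 on the Vbeta5 arrays. Both Vbeta5 arrays were below the other 6. The group means were 1962 ± 417 (SD, n = 2) for Vbeta5 and 3054 ± 525 for the overnight control, a log2 difference of -0.64 ± 0.24 (SE), with a limma p of 0.0236 before and 0.449 after adjustment. Against Valpha2 it was -0.55 ± 0.24 (limma adjusted p = 0.583). Both comparisons use the same Vbeta5 arrays.

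Rpl13a read 1376.1 and 1564.6 in the control, 1084.7 and 1423.3 in the overnight control, 1420.4 and 1416 with Valpha2, and 939.9 and 1099 with Vbeta5. The Vbeta5 arrays lay below both Valpha2 arrays and overlapped the overnight control. Its log2 difference was -0.29 ± 0.22 against the overnight control (limma adjusted p = 0.869) and -0.47 ± 0.22 against Valpha2 (limma adjusted p = 0.626). Between overnight control and control it was -0.24 ± 0.22 (limma adjusted p = 0.750), the only negative value among the 23 bright members. Rpsa ran the other way, with 2485.6 and 2252.6 in the control, 2555.9 and 2358 in the overnight control, 2219.4 and 2392 with Valpha2, and 3226.9 and 2701.4 with Vbeta5. Both Vbeta5 arrays were above the other 6. The differences of 0.26 ± 0.20 against the overnight control and 0.36 ± 0.20 against Valpha2 did not pass (limma adjusted p = 0.864 and 0.726). On the Vbeta5 arrays the summed double positive thymocyte markers were 46808 and 25512, against 66975 to 93817 on the other 6. Fewer such cells and less marker RNA per cell cannot be told apart in this sum. The median signal of the same 16 probe sets was 3214.55 and 1820.3 on Vbeta5 arrays 1 and 2, against 2629.05 to 4159.7 on the other 6. By the median, Vbeta5 array 1 therefore lay within the range of the other groups. The part of cell makeup in the differences above was not tested.

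**Figure D4:**
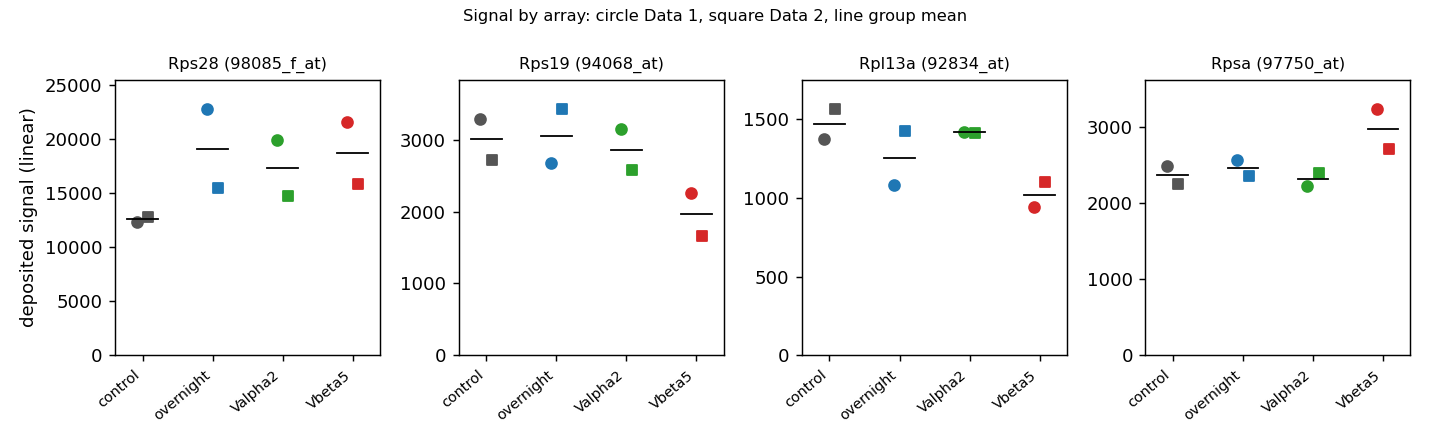
Signals (y axes, linear, from 0) of Rps28, Rps19, Rpl13a and Rpsa by group (x axis), with circles for array 1, squares for array 2 and lines for group means. Both Vbeta5 arrays are lowest for Rps19 and highest for Rpsa, while Rps28 is lowest on the control arrays.

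The Valpha2 arrays were compared with the overnight control for engagement of the alpha chain. None of 36 passed (limma), as for all tested probe sets (0%). At an unadjusted p under 0.05 there were 2 with a negative difference, Rps13 and the dim Rpl19 probe set, and 0 with a positive one, against 0.869% and 0.725% of all. The member median was -0.029, against -0.023 over all, and 15 of 36 were positive against 46.9%. It was -0.19 and 0.14 without Valpha2 arrays 1 and 2, and 0.12 and -0.17 without arrays 1 and 2 of the overnight control. Arrays did not overlap for 5 members with higher Valpha2 signals (10.5% of all) and 3 with lower ones (10.2%). The higher ones were Rpl6, Rpl39l, both Rpl22 probe sets and 1 of Rpl10a, and the lower ones Rps13, Rpl38 and the dim Rpl19 probe set. The median SE of a difference was 0.24 for a bright member, well above the size of these medians, and a p that misses the threshold does not show that the groups are alike.

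Rps13, a small subunit protein represented by 1 dim probe set, read 50.4 and 44.2 in the control, 111.2 and 86 in the overnight control, 22.4 and 23.6 with Valpha2, and 71.5 and 45.2 with Vbeta5. The Valpha2 arrays were the lowest and the overnight control arrays the highest. The Valpha2 minus overnight control difference was -1.52 ± 0.46, with a limma p of 0.00786 before and 1 after adjustment. The moderated F test over the 4 groups gave an unadjusted limma p of 0.04999 and an adjusted p of 0.516. The dim Rpl19 probe set differed by -1.19 ± 0.46 with signals of 25.4 and 26.1 against 61.4 and 105, whereas the bright one read 16469.5 and 11412.3 with Valpha2 and 15382.7 and 10857.8 in the overnight control. Signals this low lie near the offset of 17, which makes their log2 differences smaller than the ratio of signals.

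Rpl22 was measured by a pair of dim probe sets. The brighter read 128 and 100 in the control, 44.8 and 122.8 in the overnight control, 195.5 and 132.6 with Valpha2, and 170.3 and 50.9 with Vbeta5. Its Valpha2 minus overnight control difference was 0.94 ± 0.55 (limma adjusted p = 1), and both Valpha2 arrays lay above both overnight control arrays. The other read 55.1 and 79.4, 95.4 and 35.5, 107.1 and 108.3, and 138.1 and 45.9 in the same order. In both probe sets the arrays of the overnight control, and those of Vbeta5, stood far apart. Rpl22l1, the paralog that can replace Rpl22, and Rpl5, Rpl11, Rpl23, Rplp1, Rplp2, Rps6, Rps27a and Rpl10 were not analysed here as members, since no probe set names them alone.

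Between the antibody groups, Vbeta5 minus Valpha2, none of 36 members passed (limma), beside 0.278% of all in either direction (0.0966% higher and 0.181% lower). At an unadjusted p under 0.05 there was 1, Rps19, on the negative side and 0 on the positive side, against 4.08% of all on each. The median was -0.071 for members and 0.022 for all, with 12 of 36 positive against 52.2%. It was 0.088 and -0.23 without Valpha2 arrays 1 and 2, and 0.073 without Vbeta5 array 2. Arrays did not overlap for 5 members on each side, against 21.7% of all with higher and 18.5% with lower Vbeta5 signals. The higher ones were Rpsa, Rps13, Rps29, Rpl32 and the dim Rpl19 probe set, and the lower ones Rps19, Rps7, Rpl10a, Rpl13a and Rpl38. Over all 4 groups together, the moderated F test of limma called none of 36 members, beside 1.03% of all probe sets, and Rps13 alone had an unadjusted p under 0.05, against 9.67% of all.

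Other genes of the translation machinery were set beside the members in the same fit. In this main fit no probe set of these lists passed in any of the 4 comparisons (limma). That did not hold for initiation factors and ribosome biogenesis in every alternative with a single array left out. At an unadjusted p under 0.05, overnight control minus control had 1 probe set each among elongation and initiation factors, 5 among mitochondrial ribosomal proteins, 4 in biogenesis and 0 in the lists given last, against 4.03% of all probe sets with positive and 5.01% with negative differences. Elongation factors and other TOP messages (16 probe sets) had a median overnight control minus control difference of 0.20, with 11 positive, against 0.10 and 58.7% for all tested probe sets. In this list Naca, a subunit of the nascent chain complex, differed by 0.60 ± 0.21 (limma adjusted p = 0.407) and Pabpc4, a poly(A) binding protein, by -0.56 ± 0.26 (limma adjusted p = 0.572). The medians were -0.029 for 37 probe sets of initiation factors (18 positive), -0.12 for 68 of mitochondrial ribosomal proteins (24 positive) and -0.21 for 46 of ribosome biogenesis (16 positive). Eif3e, a subunit of initiation factor eIF3, differed by 0.84 ± 0.29 and Eif6, which keeps the subunits apart, by -0.43 ± 0.24 (limma adjusted p = 0.405 and 0.605). Mrps12 and Mrpl41 of the mitochondrial ribosome differed by -1.57 ± 0.44 and -0.76 ± 0.27 (limma adjusted p = 0.248 and 0.455). The lists for RNA polymerase I (15 probe sets) and for S6 kinases and the mTOR pathway (9) had medians of 0.073 and 0.057, whose signs turned with single arrays. Without arrays 1 and 2 of the overnight control they were 0.23 and -0.11 for RNA polymerase I and -0.023 and 0.12 for S6 kinases and mTOR. All tested probe sets had 0.045 and 0.13. A common median, which shifts every probe set of an array alike, gave -0.15 and -0.17 for these lists and -0.13 for all tested probe sets.

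For Vbeta5 against the overnight control, the lists were counted in the same way. At an unadjusted p under 0.05 (limma) there were 7 probe sets in biogenesis, in either direction. Elongation factors and other TOP messages had 1, initiation factors 3 and mitochondrial ribosomal proteins 2. Of all probe sets it was 4.43% with positive and 4% with negative differences. Of the 46 biogenesis probe sets, 31 had a positive Vbeta5 minus overnight control difference, with a median of 0.18, against 48.7% and -0.011 for all tested probe sets. Without array 1 of the overnight control the median was 0.087, with 26 positive, beside a median of 0.055 for all tested probe sets. Gar1, a protein of the particles that modify ribosomal RNA, differed by 0.91 ± 0.21 (limma adjusted p = 0.104) after -0.76 ± 0.21 between overnight control and control (limma adjusted p = 0.237). Fbl, the methyltransferase fibrillarin, differed by 0.82 ± 0.23 and -0.67 ± 0.23 (limma adjusted p = 0.223 and 0.407). Both pairs of values share the overnight control arrays. In the same comparison the medians were 0.021 for elongation factors and other TOP messages, 0.12 for initiation factors and 0.069 for mitochondrial ribosomal proteins. Without array 1 of the overnight control they were 0.086, 0.015 and -0.035, beside 0.055 for all tested probe sets. Without its array 2 they were -0.10, 0.18 and 0.14, beside -0.095 for all tested probe sets.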

How the data were processed

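The authors deposited 1 table of probe set intensities for 8 arrays. Per the labels these are normalized, and the method is not given in the sources used here. Detection calls were not used. Names came from the platform annotation (10833 probe sets with 1 symbol, 396 with several, 1193 with none), and all 49 members were found in RefSeq GRCm38.p6. On the authors' intensity, log2(signal + 17) was taken, 17 being the 20th percentile of positive values, and the dimmest 33.3% were left out. The remaining 8281 probe sets, 36 of them members, were fitted in R 4.3.3 by limma 3.58.1 with a mean for each group, eBayes with a trend and Benjamini-Hochberg adjustment at 0.05 over all of them. The code was tested on simulated data. The number of arrays limits the precision.

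Members could be named where they pass a test, have among the 5 smallest p in a direction, or belong to 17 set genes. So could those among the 6 brightest, dimmest, most or least variable, or with probe sets over 1 log2 unit apart. Not all of these are named. Further members are named as paralogs, for their range of signal, for arrays that do not overlap, or for their promoter. Other lists name the 2 smallest p, for the first 4 lists in overnight control minus control and for biogenesis in Vbeta5 minus overnight control. Members and lists were chosen with earlier results of these data known. Alternatives changed the normalization, scaling, offset, filter, trend, block, arrays, probe set averaging and member definition.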

Additional observations from a re-analysis of the deposited data

How the results depend on the processing

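With 2 arrays a group, without detection calls, small differences were not resolved. The number of members past the threshold was 0 in each of the 4 comparisons and over the 4 groups under every alternative run. The median of overnight control minus control over the members, 0.39, was 0.10 with quantile normalization, 0.16 with a common median and 0.23 without the 3 high-ratio arrays. Leaving out single arrays it ranged from 0.23 to 0.62, that of Vbeta5 minus overnight control from -0.23 to 0.11, that of Valpha2 minus overnight control from -0.19 to 0.14 and that of Vbeta5 minus Valpha2 from -0.23 to 0.088. For the lists, the common median gave -0.027 for elongation factors and other TOP messages, -0.26 for initiation factors, -0.35 for mitochondrial ribosomal proteins and -0.43 for ribosome biogenesis in overnight control minus control, and quantile normalization gave 0.19 for the small subunit. All tested probe sets had -0.13 with the common median and 0.022 with quantile normalization in that comparison. Leaving out single arrays, elongation factors and other TOP messages ranged from -0.10 to 0.086 in Vbeta5 minus overnight control, and mitochondrial ribosomal proteins from -0.29 to -0.014 in overnight control minus control. The cause was not tested. The array numbers do not pair the samples by the labels, and deviations of same-numbered arrays correlated at 0.10 to 0.35 across probe sets in the 6 pairs of groups. With the array number as a replicate block, 0 members passed. In this balanced design the block cannot alter a difference, only its error. Members at an unadjusted p under 0.05 with the block were 1 for Vbeta5 minus overnight control, 2 for Valpha2 minus overnight control, 2 for Vbeta5 minus Valpha2 and 8 for overnight control minus control, against 1, 2, 1 and 3 without it. No share of all probe sets at that cut-off is given for the block, so these member counts are not compared with one. Adjusted calls over all probe sets were 125, 0, 90 and 107 with the block, in the same order of comparisons, against 51, 0, 23 and 18. Over all alternatives these calls ranged from 0 to 170, 0 to 1, 0 to 90 and 0 to 123, and the members at an unadjusted p under 0.05 from 0 to 3, 0 to 4, 0 to 2 and 0 to 10. The split at a mean signal of 400 was chosen after seeing the data.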

Other observations

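The 39 probe sets with several symbols, at least 1 of them a ribosomal protein symbol, were summed without naming a gene. Their share of the summed signal was 4.37% and 4.43% on the control arrays, 6.11% and 5.05% on the overnight control arrays, 6.11% and 5.04% on the Valpha2 arrays and 5.92% and 5.21% on the Vbeta5 arrays. Both control arrays were again the lowest. Of the 35 that were tested, 32 had a positive overnight control minus control difference, with a median of 0.38. Among the 100 probe sets with the highest signal on an array, 16 or 17 were members and 19 to 21 belonged to this set.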
